A study of Sus scrofa with 8 samples.

Results

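A set of 14 array probes separated lung samples by altitude in both pig breeds at once. They were selected on the deposited log2 signals: a probe was taken when the lowest of the 4 arrays from one altitude lay more than 2 log2 units above the highest of the 4 arrays from the other altitude, and when its spot was well above the local background on at least 1 array. Of 43603 probes outside the controls, 34406 passed the background condition, and 14 of these met the altitude condition. The signal was higher at high altitude for 8 of the 14 and higher at low altitude for 6. The altitude difference of these probes is therefore a description of how they were chosen, and no p-value is attached to it. Tests are given only for breed and for the difference between breeds in the altitude effect, and both carry a limit set by the choice: a probe with a very large breed difference could not keep the altitudes apart.

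The samples were lung tissue of 8 female pigs of 6 months, 2 in each of 4 groups, each hybridised to 1 one-colour Agilent porcine array. Tibetan pigs, a breed native to the highlands, were kept at 3500 m (TH) or moved at 1 month of age to 40 m (TL). Duroc pigs, a lowland commercial breed, were kept at 40 m (DL) or moved at 1 month of age to 3500 m (DH). Each altitude thus held 1 resident and 1 migrated group, the 2 high-altitude groups shared a site, and so did the 2 low-altitude groups, so that oxygen, climate, feed and farm cannot be told apart.

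The 8 arrays lay on 2 slides, with TH and DL on one and DH and TL on the other. Altitude was balanced over the slides, whereas the difference between breeds in the altitude effect is the same contrast as slide and the same contrast as resident against migrated animals. Median raw signals ran from 206 to 228 on 6 arrays and were 320 and 331 on the 2 TL arrays, which also had the most probes well above background (31723 and 31641, against 26466 to 29319 elsewhere). The 5 measured markers of alveolar type II cells, the surfactant makers of lung, had a summed linear signal between 841000 and 1120000 on all arrays. No probe sequence is held in the tables used here, so none is shown.

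Lung at high altitude meets low oxygen, which in mammals stabilises hypoxia-inducible factors and changes vessel tone, metabolism and blood formation. Lung is a mixture of epithelium, endothelium, smooth muscle, airway cells and resident or passing blood cells, and a signal from whole tissue sums over all of them. A lower signal from fewer cells of a type cannot be told apart from one due to less RNA per cell. Of the 14 probes, 4 could be tied to a gene symbol: ZP3, higher at high altitude, and NR4A3, MYL2 and HRH4, higher at low altitude. ZP3 encodes a glycoprotein of the coat around the egg. NR4A3 is an orphan nuclear receptor of the immediate early class, switched on quickly by stress and growth signals. MYL2 is the regulatory myosin light chain of heart and slow skeletal muscle, and HRH4 is a histamine receptor known from eosinophils, mast cells and other blood cells.

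ZP3 was one of the 4 probes measured well above background on all 8 arrays. Its normalised log2 signals were 8.78 and 8.74 in TH and 8.95 and 9.05 in DH, against 6.00 and 5.86 in TL and 6.09 and 6.12 in DL. All 4 high-altitude arrays lay 2.62 or more above all 4 low-altitude arrays, and the 2 arrays of a group lay close together. The mean difference was 2.86 log2 units, a 7.25-fold higher signal at high altitude, with 7.10-fold in Tibetan and 7.41-fold in Duroc pigs. The interaction, which is the altitude difference in Tibetan pigs minus that in Duroc pigs, was -0.06 ± 0.08 (SE) with a limma adjusted p of 0.519. The breed effect, the mean of the Tibetan groups minus that of the Duroc groups, was -0.21 ± 0.04 with a limma adjusted p of 0.00656, which did not pass the threshold used throughout, a false discovery rate below 0.0001. No other ZP3 probe was tested.

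The other 7 probes higher at high altitude had no gene symbol in the tables used. Of these, the widest gap belonged to A_72_P298059, designed on the expressed sequence EV902167. Its signals were 6.96 and 7.08 in TH and 7.24 and 7.13 in DH. They were 3.13 and 3.16 in TL and 3.59 and 3.68 in DL, where no array was well above background. The separation of 3.28 therefore runs from a measured level to one that is only bounded, and the signal was at least 8.23-fold higher at high altitude. This fold, like every "at least" fold given here, sets the brighter mean against a working level for the dimmer arrays. On each array that level is the higher of the lowest signal well above background and the signal of the probe itself. It is no strict ceiling, since brighter spots could also fail the flag. In DL the lowest flagged signals were 3.46 and 4.09, but MYL2 at 5.39 and 5.79 was not well above background. Each "at least" fold or bound therefore holds for the working level only, and the true limit can be smaller. For A_72_P298059 the fold was at least 6.68 in Tibetan and at least 10.1 in Duroc pigs. A_72_P109376 (BX915747) had the same form, with signals from 6.36 to 6.74 on the high-altitude arrays and from 3.05 to 3.78 on the low-altitude arrays, none of the latter well above background. It was at least 5.50-fold higher at high altitude, at least 4.42-fold in Tibetan and at least 6.84-fold in Duroc pigs.

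A_72_P288224, designed on the transcript ENSSSCT00000009446, was measured well above background on all 8 arrays. Its signals were 13.43 and 13.33 in TH and 12.53 and 12.57 in DH, against 9.40 and 9.34 in TL and 9.68 and 9.65 in DL. The order of the breeds turned over with altitude: Tibetan arrays were the higher ones at 3500 m by 0.82 and the lower ones at 40 m by 0.29. The high-altitude signal was 16.1-fold higher in Tibetan pigs and 7.41-fold higher in Duroc pigs, or 10.9-fold over both. The interaction was 1.12 ± 0.06 (SE) with a limma adjusted p of 5.38e-05, so the difference between breeds in the altitude effect passed the threshold. It missed it whenever 1 array was left out, with effects of 1.07 to 1.17.

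A_72_P037591 (EW087115) also differed between the breeds. Its signals were 10.14 and 10.16 in TH, 8.41 and 8.50 in DH, 6.10 and 6.09 in TL and 5.54 and 5.60 in DL, the DL arrays not being well above background. The 2 TH arrays stood apart from the other 6, and Tibetan arrays were the higher ones at both altitudes. The high-altitude signal was 16.7-fold higher in Tibetan pigs and at least 7.38-fold higher in Duroc pigs, so that the interaction takes a bound for its Duroc side. Its breed effect was 1.11 ± 0.03 (limma adjusted p 4.50e-06) and its interaction 1.18 ± 0.06 (limma adjusted p 2.87e-05). The breed call did not hold without TL replicate 1 or without TL replicate 2 (adjusted p 0.000105 and 0.000104), where the effect itself was still 1.11. The interaction call was lost whenever 1 array was left out, with effects of 1.13 to 1.22.

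The remaining 3 probes of this direction are given because every probe of the set is accounted for. A_72_P119601, named by a design identifier only, ranged from 9.86 to 10.22 at high altitude and from 6.18 to 7.40 at low altitude, an 8.94-fold difference. In it the DL arrays were the lowest, and the altitude difference was 2.85 in Tibetan and 3.47 in Duroc pigs. A_72_P078181, designed on the assembled consensus TC468956, ranged from 8.51 to 9.12 and from 6.05 to 6.47, a 5.85-fold difference, with the Duroc arrays above the Tibetan arrays at both altitudes. A_72_P314033 (XM_001927919) ranged from 7.36 to 8.32 and from 5.19 to 5.36. It was 6.97-fold higher at high altitude in Tibetan pigs and at least 4.54-fold higher in Duroc pigs, both DL arrays being not well above background. None of these 3 passed the threshold for breed or for the interaction, with limma adjusted p-values for the interaction of 0.0472, 0.0708 and 0.0203.

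The 6 probes higher at low altitude had 1 feature in common that the selection did not require: none was well above background on any high-altitude array. Among the 8 probes higher at high altitude, 2 had the matching feature at low altitude. The 6 were dimmer, with means at their brighter altitude of 5.94 to 8.18, against 6.56 to 12.97 for the 8. A required gap over 2 makes this feature likelier for dim probes, so it is not independent of the selection. NR4A3 probe A_72_P008081 was designed on the consensus TC450584, and its gene name could not be checked against sequence. It gave signals of 8.67 and 8.68 in TL and 6.73 and 6.73 in DL. At high altitude it gave 3.48 and 3.03 in TH and 3.1 and 3.02 in DH. It was at least 9.68-fold higher at low altitude, at least 15.3-fold in Tibetan and at least 6.12-fold in Duroc pigs. The low-altitude arrays fell into a Tibetan and a Duroc pair 1.94 apart, and no order of the breeds can be read at high altitude, where no array was well above background. The breed effect of 1.07 ± 0.10 (limma adjusted p 3.97e-04) and the interaction of -1.75 ± 0.21 (limma adjusted p 8.54e-04) did not pass the threshold. Both passed when median signals were used with the normexp correction, where without local background they were 1.05 and -1.35 (limma adjusted p 6.73e-06 and 1.91e-05).

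The other NR4A3 probes did not show this separation. Probe A_72_P302674, designed on the RefSeq transcript NM_214247, was well above background on all arrays, with 10.93 and 10.90 in TH, 12.23 and 12.24 in DH, 13.12 and 13.08 in TL and 11.22 and 11.28 in DL. In it the altitudes overlapped: TL was above TH, but DH was above DL. The mean difference, high minus low, was -0.60, and the interaction was -3.17 with a limma adjusted p of 1.17e-06. Probe A_72_P413628, on the same RefSeq transcript, had group means of 5.31 in TH, 5.69 in DH, 6.41 in TL and 6.07 in DL. It was well above background on only 1 TH array and 1 DH array, so its high-altitude means rest in part on unmeasured levels. With signals at their value it kept the altitudes apart by 0.30 with a mean difference of -0.74. Its interaction of -0.71 had a limma adjusted p of 0.148. The 3 probes thus gave the same direction in the Tibetan pigs, TL above TH, and differed in size and, in the Duroc pigs, in direction.

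Genes of the immediate early class were measured for comparison by the brightest probe of each gene. Of 18 listed genes 4 could be tested: 2 were lower at high altitude, JUN by -0.78 and KLF4 by -0.63 (limma adjusted p 2.57e-05 and 3.58e-05), and none was higher. Among all tested probes 12.4% were called lower and 14.0% higher at high altitude. Their summed linear signal was 140000 to 143000 in TH, 197000 to 202000 in DH, 283000 to 284000 in TL and 271000 to 295000 in DL, most of it from JUN, so that the high-altitude arrays did not overlap the low-altitude arrays. Whether this had a part in the NR4A3 values was not tested.

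MYL2 (A_72_P088476) was measured above background in 1 group only. Its signals were 6.26 and 6.35 in TL and 5.39 and 5.79 in DL, against 3.05 and 3.12 in TH and 3.12 and 3.03 in DH. Only the 2 TL arrays were well above background. In Tibetan pigs the signal was at least 2.96-fold higher at low altitude. In Duroc pigs neither altitude was well above background, so that no fold is given there and the separation rests on arrays without a measured level. The interaction of -0.70 ± 0.19 had a limma adjusted p of 0.0221 and did not pass.

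Most muscle markers that passed the test moved the other way from MYL2. Of 9 tested markers of skeletal and heart muscle, 5 were higher and 1 was lower at high altitude, with a median difference of 0.78 against 0.01 over all tested probes. MYH2, a fast myosin heavy chain, was higher by 0.99 (limma adjusted p 4.40e-06), and ACTA1, the skeletal muscle actin, was lower by -0.98 (limma adjusted p 3.53e-05), the direction of MYL2. MYH7, the slow and heart heavy chain, which works with MYL2, differed by -0.20 (limma adjusted p 0.051) and was not called. The summed signal of the list was 8330 to 8400 in TH and 9800 to 10400 in DH, above the 5700 to 5810 in TL and the 6300 to 6360 in DL. MYL2 thus lay on the opposite side from the sum of this list.

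HRH4 (A_72_P077651) gave 6.79 and 6.91 in TL and 7.36 and 7.42 in DL, against 4.33 and 4.67 in TH and 3.24 and 4.07 in DH. No high-altitude array was well above background, and the 2 DH arrays differed by 0.83. The signal was at least 6.10-fold higher at low altitude, at least 3.85-fold in Tibetan and at least 9.66-fold in Duroc pigs. The breed effect was 0.15 ± 0.20 (limma adjusted p 0.54) and the interaction 1.38 ± 0.41 (limma adjusted p 0.0288), neither past the threshold.

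Mast cells and eosinophils are among the cells in which HRH4 is known. Of 4 tested markers, 2 were lower at high altitude and none was higher: MS4A2, a chain of the high-affinity IgE receptor, by -1.09 (limma adjusted p 4.48e-05) and KIT, the receptor for stem cell factor, by -1.03 (limma adjusted p 2.96e-06). Both differences lay mostly in Duroc pigs. KIT was 12.63 in TH against 13.07 in TL, and 13.12 in DH against 14.74 in DL (interaction 1.18, limma adjusted p 5.7e-06). MS4A2 was 7.38 against 7.97, and 7.55 against 9.14. HDC, not called for altitude, went opposite ways, 9.0 in TH against 9.9 in TL but 9.69 in DH against 9.48 in DL. CCR3, a chemokine receptor of eosinophils, differed by 0.13 (limma adjusted p 0.00698). The summed signal of the list was 29600 to 30200 in DL, 10700 to 10800 in TL, 11500 to 11700 in DH and 7860 to 7890 in TH, most of it from KIT. The DL arrays were the highest in this sum and in HRH4, but TL and DH stood in the reverse order in the sum. The part of these cells in the HRH4 values was not tested.

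The 3 probes without a symbol in this direction were all not well above background on any high-altitude array. A_72_P307068 (TC515265) had the widest gap of the whole set, 4.91. Its signals were 7.94 and 7.94 in TL and 8.49 and 8.36 in DL, against 2.94 to 3.03 on the 4 high-altitude arrays, at least 13.5-fold higher at low altitude. The bound was at least 9.23-fold in Tibetan and at least 19.7-fold in Duroc pigs. A_72_P079356 (TC435923) gave 6.92 and 6.85 in TL and 7.03 and 7.25 in DL, against 2.98 to 3.1 at high altitude, at least 6.01-fold higher at low altitude. At low altitude the Tibetan mean minus the Duroc mean was -0.48 in the first and -0.25 in the second, and at high altitude no order of the breeds can be read.

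A_72_P086891 (DN127566) differed from them in its breed pattern. It gave 7.30 and 7.26 in TL but 5.43 and 5.29 in DL, against 3.08 and 3.13 in TH and 3.28 and 3.08 in DH. Only the TL arrays were well above background. The signal was at least 5.84-fold higher at low altitude in Tibetan pigs, and no fold is given for Duroc pigs. At low altitude the Tibetan signal was at least 3.79-fold above the Duroc signal. The breed effect was 0.92 ± 0.06 (limma adjusted p 8.13e-05) and the interaction -2.00 ± 0.12 (limma adjusted p 5.93e-05). Both passed the threshold, though 6 of the 8 arrays behind them carried no measured level. Neither call held when any 1 array was left out, where the effects were 0.87 to 0.97 and -2.09 to -1.90.

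Over the 14 probes, 2 passed the threshold for breed, both higher in Tibetan pigs (A_72_P037591 and A_72_P086891), and none was lower. Among all tested probes 12.8% were called higher and 14.8% lower in Tibetan pigs. For the interaction 2 were positive (A_72_P288224 and A_72_P037591) and 1 was negative (A_72_P086891), against 14.9% positive and 13.6% negative among all tested probes. A_72_P086891 met the background condition only through its TL arrays. Its calls set the signals that admitted it against unmeasured levels, and they support nothing. The median breed effect was 0.21 over the 14 and -0.07 over all tested probes, and the median interaction was 0.19 and 0.21.

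Between the 2 pigs of a group the signals differed little, though this includes groups that were not well above background. In 56 pairs of arrays, 4 for each probe, the median difference was 0.07 and 48 differences were under 0.2, against a median of 0.06 over all tested probes. The altitude differences, taken with dim signals at their value, were between 2.49 and 5.20 in size with a median of 3.23. Of these, 8 run to signals that were not well above background, so that their size is not measured. Taken within each slide, where a Tibetan group faced a Duroc group, the altitude differences were between 2.05 and 5.61 in size. They were, as the selection requires, of the same direction. With 2 pigs a group the p-values rest on a spread shared over all groups.

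A separation of this width was rarer for altitude than for breed. Of the 34406 tested probes, 7205 kept the 4 high-altitude arrays apart from the 4 low-altitude arrays at any distance, 163 by more than 1 log2 unit, 14 by more than 2 and 4 by more than 3. For breed the counts were 7496, 367, 60 and 20. The probes just inside the limit were A_72_P314033 at 2.003 and A_72_P086891 at 2.012, and those just outside were A_72_P405018 at 1.992, A_72_P135736 at 1.977 and CD5L probe A_72_P216582 at 1.971. Group means of both breeds differed the same way by more than 2 for 64 tested probes, the 14 among them.

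The probes were spread over the array, with the closest pair 7 rows and 2 columns apart and of opposite direction. By design target, 4 of the 14 carried a RefSeq transcript (28.6%, against 8.70% of tested probes), 4 an assembled consensus (30.5% of tested probes), 4 an expressed or other sequence record (40.9%), 1 an Ensembl transcript (13.1%) and 1 a design identifier alone (6.80%). A gene symbol was held by 28.6% of the set and by 15.9% of all tested probes.

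Known responses to low oxygen and cell type markers were read in the same arrays, beside shares of 14.0% higher and 12.4% lower at high altitude among all tested probes. Each listed gene was read at its brightest probe, whereas the shares run over all tested probes, dim ones included, so the sets are unlike. Many of these lists are so short that 1 call more or less would move them across those shares. Of 15 tested hypoxia targets, 4 were higher and 2 lower. PDK1, which restrains the use of pyruvate by mitochondria, was higher by 1.00 (limma adjusted p 5.91e-06). So was EGLN3, a prolyl hydroxylase that acts on hypoxia-inducible factors, by 1.00 (limma adjusted p 7.86e-06). The PDK1 difference lay mostly in the Tibetan pigs, with 11.47 in TH and 9.57 in TL. In Duroc pigs PDK1 was 10.87 in DH and 10.76 in DL (interaction 1.79, limma adjusted p 6.09e-06). The EGLN3 mean hides opposite directions, 11.42 in TH against 8.92 in TL but 9.53 in DH against 10.04 in DL (interaction 3.0, limma adjusted p 2.12e-06). The 2 lower ones were VEGFA by -0.50 and MXI1 by -0.46 (limma adjusted p 1.55e-05 and 3.84e-05). None of the 14 probes belonged to that list. Of 5 tested circadian clock genes, 1 was lower, CRY2 by -0.81 (limma adjusted p 3.98e-05), and none was higher. CRY2 also went opposite ways, 7.54 in TH against 10.48 in TL but 7.89 in DH against 6.57 in DL (interaction -4.25, limma adjusted p 2.11e-06).

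Of 8 tested markers of T and NK cells 6 were higher and none lower, CD3E by 1.33 (limma adjusted p 5.88e-06) and CD2 by 1.21 (limma adjusted p 2.63e-06). GZMB, among the 6, went opposite ways, 12.26 in TH against 12.59 in TL but 14.42 in DH against 12.7 in DL (interaction -2.06, limma adjusted p 9.31e-06). Of 4 tested markers of B and plasma cells 3 were higher, among them CD79A by 1.98 (limma adjusted p 2.46e-06), which was 12.48 in TH against 8.28 in TL but 9.57 in DH against 9.80 in DL (interaction 4.42, limma adjusted p 9.10e-07). The summed signals were 46800 to 47300 (TH), 64200 to 67100 (DH), 30900 to 31400 (TL) and 36800 to 36900 (DL) for T and NK cells. For B and plasma cells they were 190000 to 191000, 129000 to 131000, 132000 to 136000 and 117000 to 119000, of which most was XBP1, a gene that other cells also use. The T and NK sum was higher on every high-altitude array, and the part of these cells in the 8 probes higher at high altitude was not tested. Of the cells that make up the lung itself, alveolar type II markers had 1 of 5 higher and 1 lower, alveolar type I markers 2 of 5 lower and none higher, endothelial markers 2 of 7 lower and none higher, and macrophage markers 1 of 6 higher and 1 lower. The lower type II marker, SLC34A2, was 12.24 in TH against 14.99 in TL but 12.75 in DH against 11.83 in DL. CLIC5, a lower type I marker, was 8.93 in TH against 11.79 in TL but 8.87 in DH against 8.05 in DL. Some markers of other tissues and cells also differed in signal with altitude. Of 7 adipocyte markers 3 were higher and none lower. ADIPOQ, the hormone adiponectin, was higher by 2.32 and PLIN1, a lipid droplet protein, by 2.01 (limma adjusted p 3.64e-06 and 2.16e-05). PLIN1 was not well above background on any low-altitude array. ADIPOQ differed more in Duroc pigs (9.38 in DH, 5.9 in DL) than in Tibetan pigs (9.0 in TH, 7.84 in TL). Of 3 neutrophil markers 2 were higher, PGLYRP1 by 2.05 (limma adjusted p 1.92e-06). PGLYRP1 was 14.54 in TH against 10.89 in TL but 11.6 in DH against 11.15 in DL (interaction 3.2, limma adjusted p 8.44e-07). Of 3 mesothelial and cartilage markers 2 were lower, the cartilage matrix genes MATN1 by -2.46 and ACAN by -1.22 (limma adjusted p 1.92e-06 and 8.73e-06). MATN1 was not well above background in DH. The adipocyte sum was 27500 to 28000 in TH and 40200 to 41800 in DH, against 23700 to 24800 in TL and 32000 to 32800 in DL, and the mesothelial and cartilage sum was 3870 to 4090, 441 to 455, 8720 to 9070 and 1390 to 1450 in the same order. Within each breed the adipocyte sum was higher and the cartilage sum lower at high altitude. The neutrophil sum was 52300 to 53100 in TH and 10400 to 10600 in DH, against 12900 to 13100 in TL and 13000 to 13100 in DL. It was thus higher at high altitude in Tibetan pigs and lower in Duroc pigs. The part of these tissues and cells in the values of the 14 probes was not tested.

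The direction of all 14 altitude differences was the same under all 4 ways to make the signal, but their size was not. All 4 start from the same spots that chose the probes, so the shared direction is no separate support. ZP3 went from 2.86 with quantile-normalised processed signals to 2.76 with scaling to the 75th percentile, 2.42 with the normexp correction without local background and 1.43 with local background and an offset. NR4A3 probe A_72_P008081 went from -4.54 to -4.42, -2.85 and -1.29, HRH4 from -3.04 to -2.98, -1.87 and -0.85, and MYL2 from -2.86 to -2.76, -1.54 and -0.51. A_72_P288224 moved least, between 2.97 and 3.52. An added offset draws dim signals together, and 8 of the 14 probes were not well above background on any array of their dimmer altitude.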

How the data were processed

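Lung RNA of 8 pigs was hybridised individually, and the labels give 4 groups of 2. The authors extracted spots with Feature Extraction (10.7.3.1 in the file headers). The scanner files as deposited hold processed signal intensity, median signal intensity and background flags, and the deposited value table holds log2 values with the same distribution on every array. Those log2 values, in the rank order of the processed signals (rho at least 0.9999955), chose the probes. The members and lists were chosen with earlier results of these data known. Columns of the authors' comparisons in supplementary tables were not used, apart from gene symbols.

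Here log2 processed signals were quantile normalised, outlier spots left out, spots of a probe averaged, and a model of breed, altitude and interaction was fitted with limma 3.58.1 (R 4.3.3) over 34406 probes, with Benjamini-Hochberg adjustment and a threshold of 0.0001. The model was tested on simulated data. The fit takes signals that were not well above background at their value. Probe symbols came from RefSeq accessions and the study's tables: 5667 of 43603 probes had 1 symbol, 11 had several and 37925 had none. The NR4A3 symbol of A_72_P008081 was given there as an older synonym and could not be checked against sequence. Named were all members with 1 symbol, then by widest gap 3 without one in each direction, and the other 4 so that every member is accounted for, A_72_P037591 at length for its calls. Also named were in each list up to 2 called genes with the largest differences, and CCR3, HDC, GZMB, VEGFA, MXI1, MYH7 and XBP1, chosen after their values were seen. Some items are not reported here. Of 222 listed genes 111 were tested, at the brightest probe, and 51 were called for altitude. Alternatives were the deposited values, 75th percentile scaling, normexp correction (offset 0 or 50), other filters on dim probes, outliers kept, no moderation, an intensity trend, a replicate block, slide as a block, a threshold of 0.05 and leaving out each array. The number of arrays limits the precision.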

Additional observations from a re-analysis of the deposited data

Results flagged for a closer look

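For 3 of the 14 probes the altitude difference itself differed between the breeds in the limma test of the interaction (Tibetan minus Duroc difference, 2 pigs a group). It was 1.12 for A_72_P288224, with TH minus TL of 4.01 and DH minus DL of 2.89. It was 1.18 for A_72_P037591, with 4.06 and 2.88, the latter a bound because the DL arrays were not well above background. It was -2.00 for A_72_P086891, with -4.18 and -2.18, where only the TL arrays, through which it met the background condition, were well above background. Among all tested probes the interaction was called positive for 14.9% and negative for 13.6%, so such calls were not particular to these probes. In these 8 arrays this contrast cannot be told apart from slide or from residence against migration. None of the 3 calls held in the fits that left out 1 array, each of which has fewer arrays, and without TH replicate 1 the interaction of NR4A3 probe A_72_P008081 was called in their place (-1.97, limma adjusted p 6.17e-05).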

How the results depend on the processing

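The selection found 14 probes on the deposited values and on the normalised processed signals, and 12 after 75th percentile scaling, of which 9 were shared. It found 6 with normexp without local background and 1 with local background, 52 with a gap over 1.5 and 4 with a gap over 3. Leaving out 1 array gave 16 to 26, the highest without DL replicate 2 and all with the 14 among them, since fewer arrays meet the condition more easily. No altitude difference changed direction under any setting run. With the deposited values, other filters, kept outliers or a left-out array the selection itself left no room for such a change. Scaling to the 75th percentile only shifts each array of the same processed signals and left little room.

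The 2 breed calls became 0 among probes above background on all 8 arrays, where only 4 members were tested, 1 without a filter, 1 without moderation, 1 with an intensity trend, 12 at a threshold of 0.05 and 0 to 2 without 1 array, 0 without either TL array. The breed count stayed at 2 with 75th percentile scaling and with normexp, but A_72_P288224 or, with either normexp setting, NR4A3 probe A_72_P008081 stood in place of A_72_P086891, and with local background so it did among the 3 interaction calls. The 3 interaction calls became 1 with 75th percentile scaling (A_72_P288224) and 1 with normexp without local background. The latter was NR4A3 probe A_72_P008081 and none of the 3. They became 1 above background on all arrays, 0 without moderation, 10 at 0.05 and 0 to 1 without 1 array. The 51 listed genes called for altitude became 32 without moderation, 97 at 0.05 and 11 to 21 without 1 array (settings chosen after the data were seen). Same-numbered pigs did not deviate together (correlations -0.052 to 0.096), and with a replicate block the counts were 1 for breed, 0 for the interaction and 21 for the lists.

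Breed effects changed sign with normexp without local background for A_72_P298059 (0.33) and HRH4 (-0.12), with local background for HRH4 (-0.08), with 75th percentile scaling for ZP3 (0.03) and A_72_P079356 (0.01), and for HRH4 without DH replicate 1 (range without 1 array -0.06 to 0.36). Interactions did so with normexp without local background for A_72_P298059 (-1.0) and A_72_P079356 (-0.42), with local background for the same probes (-0.18 and -0.06), and with 75th percentile scaling for A_72_P307068 (-0.18) and A_72_P079356 (-0.43). Without 1 array they ran from -0.13 to 0.00 for ZP3 and from -0.10 to 0.44 for A_72_P109376. None of these effects was called in the main setting, and the cause of these changes was not tested. Signals not well above background carry no order, which limits 10 of the 14 probes on at least 1 array.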

Other observations

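Just under the limit lay 38 probes with a gap of 1.5 to 2. Those named here were chosen among the ones with a gene symbol after their values were seen, and their altitude differences are descriptions. CD5L, a secreted protein of macrophages, had group means (2 arrays each) of 15.03 ± 0.11 (SD) in TH, 12.75 ± 0.05 in DH, 10.33 ± 0.07 in TL and 10.73 ± 0.02 in DL. RGS5, a regulator of G protein signalling known from pericytes, had 12.92 ± 0.04 in TH, 10.28 ± 0.01 in DH, 8.51 ± 0.03 in TL and 8.45 ± 0.15 in DL. In both, the TH arrays were the highest, and the interactions of 2.67 and 2.58 passed the threshold (limma adjusted p 9.94e-06 and 1.73e-05).

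Higher at low altitude were MMP1, the interstitial collagenase, and F2R, the thrombin receptor. F2R had group means of 10.21 ± 0.02 in TH, 7.39 ± 0.02 in DH, 11.83 ± 0.02 in TL and 11.99 ± 0.01 in DL, with the DH arrays lowest and an interaction of 2.97 (limma adjusted p 9.30e-07). MMP1 had 8.41 ± 0.03 in TL and 8.20 ± 0.00 in DL, 6.51 ± 0.07 in DH and 4.77 ± 0.78 in TH, where it was not well above background.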
